A study of Caenorhabditis elegans with 16 samples.

Results

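The genotype by diet interaction describes how far the response to a bacterial diet in rnp-6(G281D) worms departed from the response in wild type. For each gene it is the difference between BW25113 and OP50 in rnp-6(G281D) minus the same difference in wild type, on the log2 scale. It uses all 16 samples of the series, 4 in each of 4 groups, and was computed for the 15799 of 29351 listed genes whose mean over the 16 samples was at least 10 normalized counts. The wild type was N2. The mutant carried rnp-6(G281D), a single hypomorphic missense allele, so the comparison rests on 1 mutant line. Both genotypes were hatched and raised on E. coli OP50 or on E. coli BW25113, a K12-type strain, and RNA was taken from whole animals, many worms to a sample, on day 1 of adulthood, 3 days after egg-laying. No supplement or other agent distinguishes the groups. Whether the 4 replicates of a group came from separate cultures is not stated in the labels, so p-values measure the spread between these samples, which may be technical.

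RNP-6 is the worm counterpart of PUF60, a splicing factor that helps the spliceosome to recognise the 3′ splice site. K12-type E. coli carry more vitamin B12 than OP50. In animals vitamin B12 serves methionine synthase, which feeds the S-adenosylmethionine used for methylation and for phosphatidylcholine synthesis, and methylmalonyl-CoA mutase, which breaks down propionate. In C. elegans a propionate shunt is switched on when vitamin B12 is low.

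A gene was called at a Benjamini-Hochberg adjusted p under 0.05 and an absolute log2 difference over 0.5 in limma, on log2 of the normalized count plus 1. The normalized count is the authors' estimated gene count divided by a size factor of the sample. Adding 1 tends to understate the difference between 2 groups in genes with low counts. The interaction, a difference of such differences, can move either way. That of C25F9.11 was -3.88 with 1 added and -3.60 with 0.1. The interaction was called in 382 genes, 2.42% of those tested. It was negative in 325 (2.06%), which means that BW25113 lowered the gene more, or raised it less, in rnp-6(G281D) than in wild type. It was positive in 57 (0.361%). With no fold threshold 737 genes passed, and 2792 had an unadjusted p under 0.05. The replicate number as a block gave 473 called genes, 82 positive and 391 negative. With quantile normalization 90 genes were called positive and 270 negative, so that 75% rather than 85.1% of the called genes were negative.

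The depth of each library is not given by the normalized values, whose totals lay between 36330390 and 38381707 per sample. Wild type on BW25113 replicate 3 stood apart within its group. It was the highest of its 4 replicates in 194 of the 325 genes called negative (59.7%), against 25.6% of all genes tested. Without it 330 genes were called, 278 negative and 52 positive, and 308 of them were among the 382. In rnp-6(G281D) on OP50, replicate 4 was the highest in 141 of the 325 genes (43.4%), against 29.3% of all genes. Without it 323 genes were called, of which 309 were among the 382. Defining markers of intestine, body wall muscle, neurons, germ line, sperm and oocytes were all measured, as were 4 of 6 of hypodermis and seam. The mutated gene rnp-6 was present in every sample, at 5484 to 5718 and 5236 to 5548 normalized counts in wild type on OP50 and BW25113 and at 6798 to 7189 and 7213 to 7519 in the mutant. The mutation is a base change, so this level does not check the genotype labels. Its interaction was 0.09 (standard error 0.037, adjusted p = 0.21), not called.

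The 4 groups contributed unequally to the interaction. The diet effect on its own, fitted on the 8 samples of 1 genotype, was called in 1479 genes in rnp-6(G281D) (9.36%) and in 526 in wild type (3.33%). The genotype effect was called in 1816 genes on OP50 (11.5%) and in 898 on BW25113 (5.68%). With the replicate number as a block these 2 counts were 1875 and 1108. The wild-type diet count was the least stable. It was 275 without wild type OP50 replicate 4, 280 without wild type OP50 replicate 1 and 305 without wild type BW25113 replicate 2, and 710 with the replicate number as a block. In 1 fit of all 16 samples, which shares the spread among groups, the diet effect was called in 1804 genes in rnp-6(G281D) and 368 in wild type. Of the 382 genes with a called interaction, 294 had a called diet effect in rnp-6(G281D) and not in wild type, 23 in wild type and not in the mutant, 12 in both in the same direction, 3 in both in opposite directions and 50 in neither, a split that moves with the wild-type count. A diet effect called in 1 genotype alone is no test of the difference, which is the interaction itself. Across the 325 negative genes the median diet effect was -0.93 in rnp-6(G281D) and 0.019 in wild type, and across the 57 positive genes it was 0.95 and 0.036. These medians describe genes chosen for that difference and carry no test. Over all 15799 genes the diet effects of the 2 genotypes, which share no samples, had a Pearson r of 0.54. This is a description across genes, which are not independent.

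**Figure D1:**
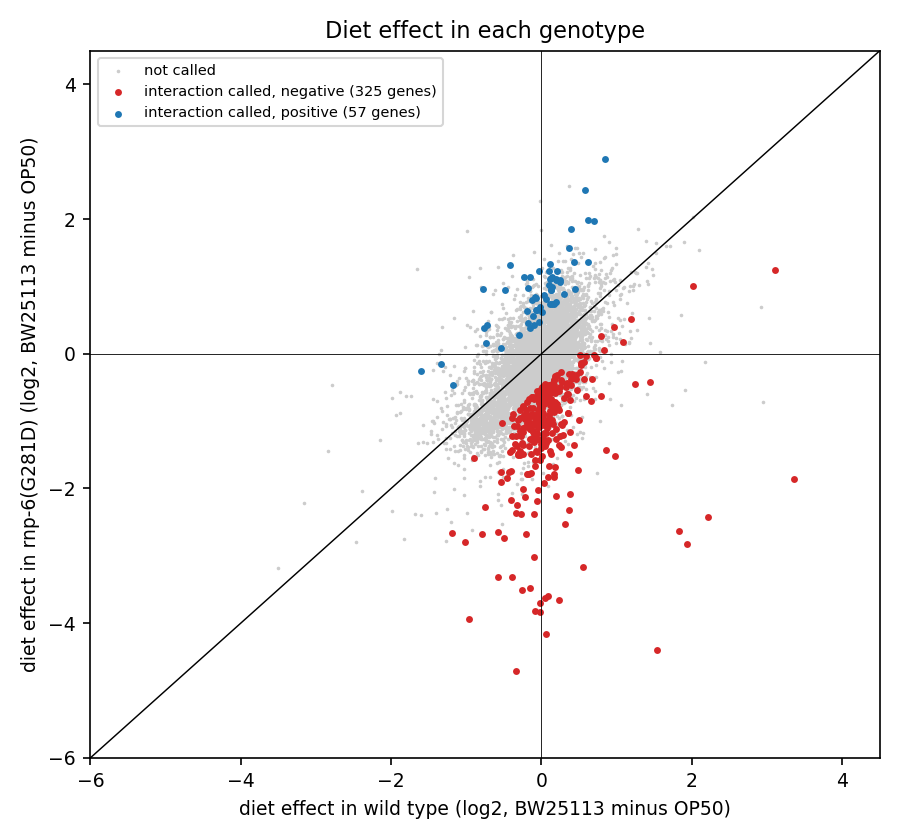
Each point is 1 of the 15799 genes, placed by its diet effect in wild type (x axis) and in rnp-6(G281D) (y axis), both as log2 differences of BW25113 minus OP50; the diagonal marks equal effects. The 325 red genes with a called negative interaction lie below the diagonal, mostly near 0 on the x axis, and the 57 blue genes lie above it.

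The most frequent shape was a gene in which rnp-6(G281D) on OP50 lay farther from the rest than any other group did. For each called gene the group farthest from the median of the other 3 group means was found. It was rnp-6(G281D) on OP50 in 308 of 382 genes (80.6%), rnp-6(G281D) on BW25113 in 39 (10.2%), wild type on OP50 in 29 (7.59%) and wild type on BW25113 in 6 (1.57%). Without wild type BW25113 replicate 3 the first count was 267 of 330. The called genes were chosen for a contrast of these same group means. The group apart was not sought over all genes tested. Whether these shares are particular to the called genes was therefore not tested. Relative to the wild type OP50 mean, the median of the 325 negative genes lay between 0.80 and 0.88 on the log2 scale in the rnp-6(G281D) OP50 samples and between -0.078 and 0.024 in those on BW25113. In wild type on BW25113 it was between -0.030 and -0.023 in 3 samples and 0.16 in replicate 3. The 57 positive genes lay between -1.11 and -0.88 in rnp-6(G281D) on OP50 and between -0.24 and -0.10 on BW25113. The difference between genotypes was smaller on BW25113 than on OP50 in 337 of the called genes (88.2%) and in 55.2% of all genes tested. The interaction is itself the change of that difference between diets. The called genes were thus chosen on these values, and the shares carry no test.

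**Figure D2:**
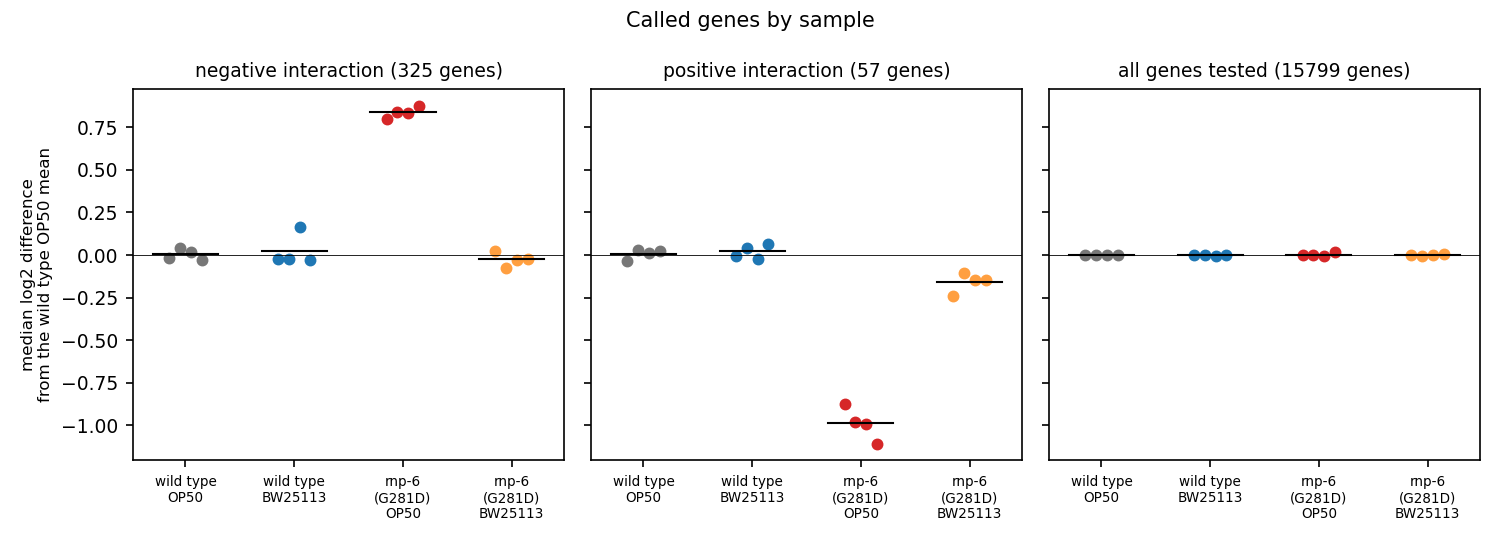
Each point is 1 sample, the 4 replicates of a group side by side, and the y axis is the median log2 difference from the wild type OP50 mean over the genes of the panel; the line is the mean of the 4 samples. The rnp-6(G281D) OP50 samples lie at 0.80 to 0.88 for the negative genes and at -1.11 to -0.88 for the positive genes, away from the other 3 groups.

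In bulk RNA from whole worms, fewer cells of a type and less RNA per cell cannot be told apart. Summed markers of some cell types differed slightly in the same group. The summed level of 6 intestinal markers was 15.2 to 15.3 on the log2 scale in rnp-6(G281D) on OP50 and 14.9 to 15.1 in the samples of the other 3 groups, and that of 6 neuronal markers was 12.3 to 12.4 and 12.1 to 12.3. The 6 germ line markers summed to 15.95 to 15.97 in rnp-6(G281D) on OP50 and to 15.96 to 16.2 elsewhere. Of these 18 markers only mtl-2 was called. Their part in the result was not tested.

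Several of the largest negative interactions were in genes hardly measured in wild type on either diet. Y37H2A.14 (WBGene00045416, chromosome V, 18143745 to 18144720 in WBcel235) stood at 36.4, 38.4, 40.4 and 32.4 normalized counts in wild type on OP50 and 39.3, 25.01, 64.04 and 27.1 on BW25113, replicates 1 to 4 in order here and throughout. In rnp-6(G281D) it stood at 1214, 1669, 1414 and 1577 on OP50 and at 152, 75.7, 118 and 114.9 on BW25113. Every mutant sample on OP50 lay above 1000 and every mutant sample on BW25113 at 152 or below, still above all wild-type samples. The interaction was -3.67 (standard error 0.34, adjusted p = 4.2e-06). The gene warf-1 (chromosome IV, 7634786 to 7635712) had the same shape, with 51.9, 45.4, 51.7 and 40.6 in wild type on OP50, 36.04, 29.8, 65.8 and 45.7 on BW25113, 1054, 1038, 1097 and 1485 in the mutant on OP50 and 169, 64.5, 80.1 and 129.5 on BW25113. The mutant groups did not overlap each other, while 1 mutant sample on BW25113 lay below the highest wild-type sample on that diet. Its interaction was -3.32 (standard error 0.37, adjusted p = 2.7e-05). T26H5.9 (chromosome V, 15444916 to 15445420) was at 5.07 to 16.6 and 7.05 to 11.96 in wild type on OP50 and BW25113, 346, 470.3, 370.4 and 339 in the mutant on OP50 and 9.72, 26.3, 30.1 and 20.8 on BW25113. The lowest mutant sample on OP50 was more than 10 times the highest of the other 12 samples, and the interaction was -4.23 (standard error 0.47, adjusted p = 2.7e-05).

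Y41C4A.32 (WBGene00270321, chromosome III, 11721706 to 11723607), related to the COPI coat subunit COPB2 and used by the study as a stress reporter, was measured at 92.1, 85.8, 76.4 and 67.04 in wild type on OP50 and 60.1, 62.5, 180.3 and 56.7 on BW25113. In the mutant it was at 2611, 2764, 2636 and 5005 on OP50 and 338, 139, 194 and 246 on BW25113. The 4 mutant samples on OP50 exceeded the other 12 without overlap. In wild type on BW25113 the value of replicate 3 lay within the range of the mutant samples on the same diet, while the other 3 replicates lay below every wild-type sample on OP50. The interaction was -3.82 (standard error 0.46, adjusted p = 5e-05), and -3.43 without that sample. The diet effect was -3.84 in rnp-6(G281D) and -0.017 in wild type. The study chose this gene as its reporter from RNA sequencing of these same groups, so its call is no independent result. In a list of the integrated stress response 1 of 9 genes was called, Y41C4A.32 itself (11.1%, beside 2.42% of all genes). That share rests on this gene alone and says nothing about the rest of the list. The list's central factor atf-4 had an interaction of 0.14 (adjusted p = 0.58) at the RNA level. The study read this response from phosphorylation of an initiation factor and from ATF-4, and RNA counts do not measure phosphorylation.

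Among the ion transporters, nhx-6, a sodium-proton exchanger, and catp-2, a P-type cation ATPase, had some of the largest interactions. Levels of nhx-6 (chromosome II, 1670829 to 1674401) were 0, 8.62, 3.71 and 3.99 in wild type on OP50 and 24.98, 24.1, 208 and 17.2 on BW25113, and 989, 1074, 1037 and 659 in the mutant on OP50 and 392, 136, 244 and 324 on BW25113. No groups overlapped except that wild type on BW25113 replicate 3 lay within the range of the mutant on that diet. BW25113 thus raised nhx-6 in wild type (3.35, adjusted p = 0.032) and lowered it in the mutant (-1.85, adjusted p = 0.0013). The interaction was -5.21 (standard error 0.96, adjusted p = 0.003), and -4.41 without replicate 3 of wild type on BW25113. For catp-2 (chromosome V, 4934706 to 4939085) the values were 0, 4.01, 1.04 and 0.819 in wild type on OP50, 2.21, 9.69, 69.4 and 2.56 on BW25113, 706, 679.9, 579 and 357 in the mutant on OP50 and 102, 79.4, 109 and 134 on BW25113. Only the mutant samples lay above 70. The interaction was -4.63 (standard error 1.00, adjusted p = 0.01), and -3.67 without that replicate. Its neighbour C02E7.10 was at 0 in 3 of 4 wild-type samples on OP50, at 132 to 280.1 in the mutant on OP50 and at 22.3 to 38.99 in the mutant on BW25113, and had an interaction of -4.77 (standard error 0.93, adjusted p = 0.0047). With wild-type levels so near 0, the sizes for these 3 genes depend on the 1 added before the logarithm.

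The other genes among the 12 largest negative interactions with a group mean of at least 100 were F33H12.7 (-4.36), C25F9.11 (-3.88), T19C9.8 (-3.73), C49G7.7 (-3.72) and ZC239.14 (-3.67). In each of them rnp-6(G281D) on OP50 stood apart, and each of its 4 samples exceeded all 12 others. The call of C25F9.11 was lost with a pseudocount of 0.1. Interactions beyond 2 in size were found in 36 called genes, 35 of them negative. The largest with 1 added before the logarithm, in dod-21, was -5.93, with 74.1 to 80.1 in the mutant on OP50 and no more than 8.75 in any other sample. Its size and rank depend on that added value. With a pseudocount of 5 it was -4.03, smaller than that of nhx-6 (-4.23), and with 0.1 it was -7.96. The gene passed the filter on low values only through the mutant on OP50. So did C25F9.11, bath-46, fbxa-30 and C07G1.7 among other genes named. Means in wild type on OP50, wild type on BW25113 and the mutant on BW25113 were 1.97, 3.15 and 8.31 in C25F9.11. They were 6.40, 6.03 and 5.16 in bath-46, 1.66, 1.37 and 6.64 in fbxa-30, and 4.7, 18.3 and 5.81 in C07G1.7.

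Positive interactions were smaller, and in most the mutant on OP50 was the low group. The acid phosphatase gene pho-11 (chromosome II, 9931849 to 9934431) stood at 4521, 4753, 4359 and 5135 in wild type on OP50 and 8172, 7078, 6368 and 7323 on BW25113, and at 798, 823, 715 and 583 in the mutant on OP50 and 2833, 3132, 2707 and 2881 on BW25113. No groups overlapped. It rose on BW25113 in both genotypes, by 0.62 in wild type and 1.99 in the mutant, and the interaction was 1.37 (standard error 0.13, adjusted p = 5.1e-06). In plain normalized counts the rise was larger in wild type, so the sign depends on the log scale. The same was true of mtl-2 and of the pseudogene WBGene00019208, and of no other called gene. A UDP-glucuronosyltransferase gene, ugt-53, was at 421, 472, 495 and 438 in wild type on OP50, 650.3, 633, 549.8 and 563 on BW25113, 102, 86.8, 65.7 and 71.1 in the mutant on OP50 and 265, 338, 313 and 265 on BW25113. Its mutant samples on OP50 were all at 102 or below and its other 12 samples above 260, with an interaction of 1.47 (standard error 0.17, adjusted p = 3.6e-05). The metallothionein gene mtl-2, whose product binds metals, was at 140.4, 159, 142.4 and 134 in wild type on OP50, 245, 259, 207 and 232 on BW25113, 15.2, 23.5, 23.7 and 21.9 in the mutant on OP50 and 70.2, 105, 75.2 and 91.7 on BW25113. The 4 groups did not overlap, and its interaction was 1.27 (standard error 0.22, adjusted p = 0.0016). The ferroportin gene fpn-1.2, for an iron exporter, was at 84.5 to 111 in the mutant on OP50 and at 175 to 233 on BW25113, the latter overlapping wild type on OP50 (174 to 212), with an interaction of 1.37 (standard error 0.19, adjusted p = 0.00018).

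The other genes among the 12 largest positive interactions with a group mean of at least 100 were WBGene00019208 (2.05), sdz-24 (1.86), F54D8.10 (1.30), T22B7.7 (1.27), T05E7.1 (1.22), spin-3 (1.21), asp-14 (1.19) and cyp-25A1 (1.15). Below that level clec-210 (1.74) and fbxb-9 (1.74) had interactions larger than most of these. Reads of the pseudogene may come from a gene it resembles, and its call was lost without wild type BW25113 replicate 2. The call of spin-3 was lost without any 1 of 9 samples, among them wild type BW25113 replicate 3.

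**Figure D3:**
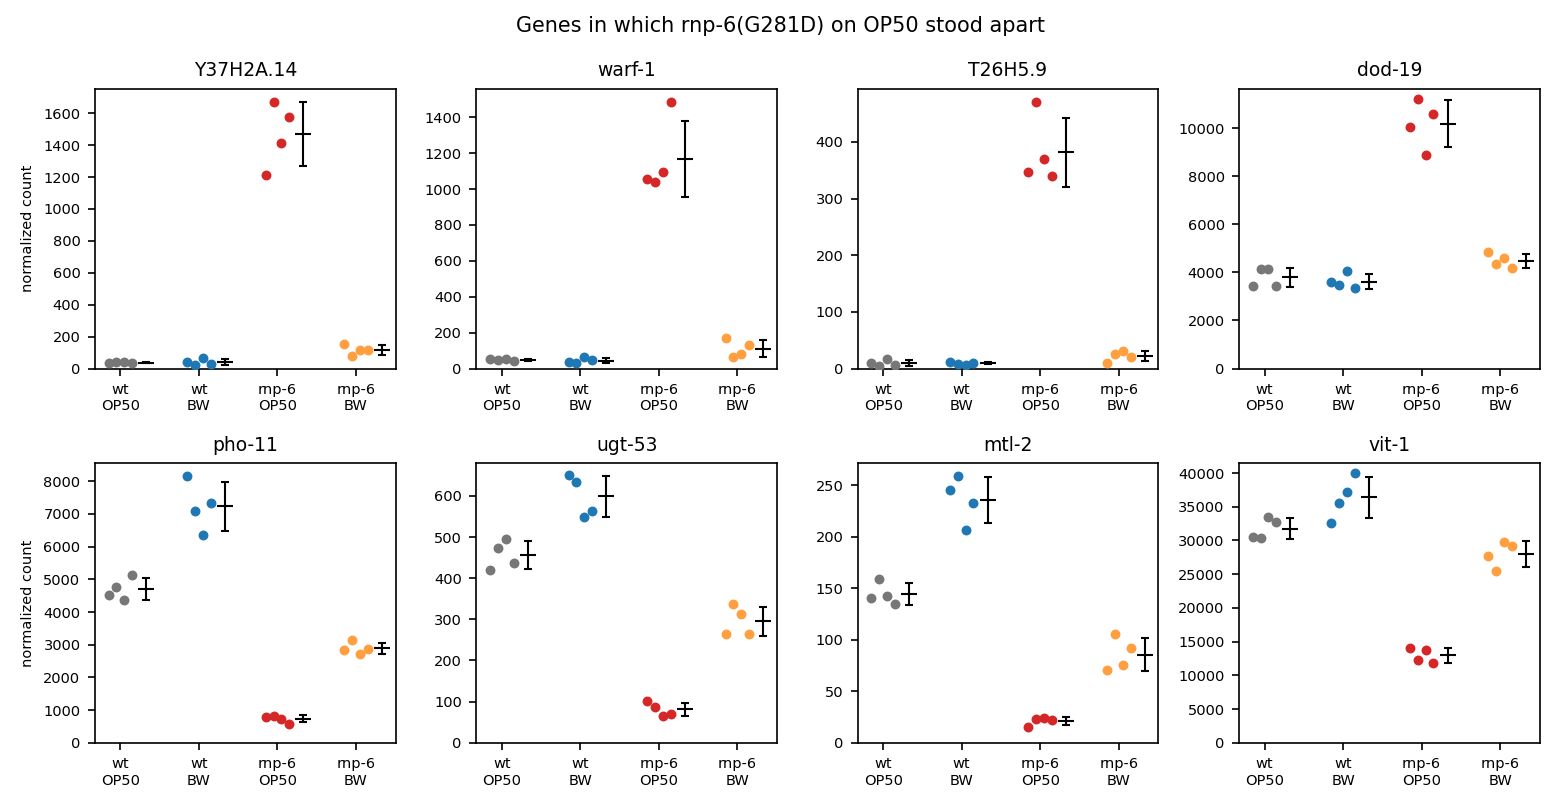
Normalized counts (y axis, linear and from 0) of 8 genes in the 4 groups, wild type (wt) and rnp-6(G281D) (rnp-6) on OP50 and BW25113 (BW); points are the 4 replicates and bars the mean ± SD. In the upper 4 genes the rnp-6(G281D) OP50 samples are the highest and in the lower 4 the lowest, and the rnp-6(G281D) BW25113 samples lie nearer to wild type.

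A smaller set of 39 genes had rnp-6(G281D) on BW25113 as the group apart. One was ugt-2, with 475, 427, 455 and 401 in wild type on OP50, 438, 415, 454 and 420.5 on BW25113, 547, 517, 561 and 562 in the mutant on OP50 and 240.4, 212, 220.2 and 230.3 on BW25113. All mutant samples on BW25113 lay below 241 and all other samples at 401 or above. The diet lowered it in the mutant (-1.27) and the diet effect in wild type was -0.023, with an interaction of -1.25 (standard error 0.088, adjusted p = 3.3e-07). The neighbouring genes pals-23 and pals-24 belong to a family known from the intracellular pathogen response. The level of pals-23 was 197, 219.7, 206 and 171 in wild type on OP50, 212, 186, 172 and 176 on BW25113, 185, 152, 169 and 131 in the mutant on OP50 and 59.3, 49.3, 37.6 and 52.01 on BW25113. Only the mutant on BW25113 lay below 130, and the interaction was -1.58 (standard error 0.20, adjusted p = 6.6e-05). For pals-24 the interaction was -1.18 (standard error 0.21, adjusted p = 0.0023), while the regulators pals-22 and pals-25 had -0.44 (adjusted p = 0.2) and -0.24 (adjusted p = 0.51), not called. In the other direction, sdz-24 was at 229, 356, 302 and 241 in the mutant on BW25113 and at no more than 86.5 in any other sample, with an interaction of 1.86 (standard error 0.36, adjusted p = 0.005). Summed levels of 2 marker lists lay lower or higher in the same group, with ranges that overlapped other groups. The 8 sperm markers summed to 10.0 to 10.8 on the log2 scale in the mutant on BW25113 and to 10.7 to 11.9 elsewhere, and the 7 markers of moulting larvae to 11.7 to 12.7 against 11.1 to 11.9. Neither shift was particular to that group. The median diet effect of the sperm markers was -0.64 in wild type and -0.998 in the mutant. The moulting markers were higher in the mutant on both diets, by a median of 0.63 on OP50 and 0.67 on BW25113. No gene of either list was called, and the part of these lists in the result was not tested.

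Wild type on OP50 was the group apart in 29 genes. The aspartyl protease gene asp-14 stood at 2418, 2484, 2073 and 2292 in wild type on OP50, 1073, 1023, 642 and 986 on BW25113, 728, 708, 711 and 505 in the mutant on OP50 and 559.8, 648, 606 and 559.8 on BW25113. Every wild-type sample on OP50 was at 2073 or above, and no other sample above 1073. BW25113 lowered it in wild type (-1.34, adjusted p = 0.0002), whereas the diet effect in the mutant was -0.15 (adjusted p = 0.39), and the interaction was 1.19 (standard error 0.19, adjusted p = 0.001). The cathepsin B-like protease gene cpr-4 was at 11632, 11124, 11369 and 11499 in wild type on OP50, 15459.7, 15115, 18995 and 15514 on BW25113, 16929, 16247, 15812 and 18569 in the mutant on OP50 and 14114, 14262, 12709.7 and 14812 on BW25113. Wild type on OP50 was lowest with no overlap. The diet effect was 0.51 in wild type and -0.27 in the mutant, and the interaction was -0.78 (standard error 0.091, adjusted p = 3.8e-05). The omega-class glutathione transferase gene gsto-1 rose on BW25113 in both genotypes, with 186 to 207 on OP50 and 656 to 1210.2 on BW25113 in wild type and 271 to 337 and 425 to 703 in the mutant. The diets did not overlap in either genotype. The rise was 2.01 in wild type and 1.01 in the mutant. The interaction was -1.004 (standard error 0.24, adjusted p = 0.018), and -0.80 without the 1210 of wild type on BW25113 replicate 3.

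In 3 genes the diet effect was called in both genotypes in opposite directions, namely nhx-6, lys-2 and C07G1.7. The lysozyme gene lys-2 stood at 2546, 2960.4, 3008 and 2731 in wild type on OP50 and 3779.7, 3702, 4712 and 3759 on BW25113, and at 6083, 7182, 6269 and 4818 in the mutant on OP50 and 2945, 2801, 3275 and 3194 on BW25113. Within each genotype the diets did not overlap. The diet effects were 0.50 in wild type (adjusted p = 0.0035) and -0.98 in the mutant (adjusted p = 7.8e-05), with an interaction of -1.48 (standard error 0.14, adjusted p = 5.1e-06). C07G1.7 was at 1.73, 6.06, 6.21 and 4.98 in wild type on OP50, 14.2, 21.2, 15.8 and 22.01 on BW25113, 49.2, 34.3, 21.95 and 72.9 in the mutant on OP50 and 4.33, 6.14, 7.54 and 5.22 on BW25113. It rose in wild type and fell in the mutant, and the interaction was -4.46 (standard error 0.51, adjusted p = 3.4e-05). Like dod-21, it passed the filter on low values only through the mutant on OP50.

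For genes of vitamin B12-dependent metabolism the median interactions were close to 0. None of 7 propionate shunt genes, 6 genes of the canonical propionate route and 18 genes of the methionine and S-adenosylmethionine cycle was called, and the medians were 0.012, 0.001 and 0.032, beside 0.002 over all genes tested. With 2.42% of all genes called, counts of 0 in lists this short are near the background and say little about their members. The shunt's first dehydrogenase gene, acdh-1, was at 47647, 48622, 48578 and 47755 in wild type on OP50, 52404, 51229, 48471 and 49739.5 on BW25113, 57051, 55404, 55595 and 53323 in the mutant on OP50 and 58779.7, 61223, 57264 and 56578 on BW25113. The mutant lay above wild type on each diet without overlap, and the diets overlapped in each genotype. The diet effects of 0.067 in wild type and 0.079 in the mutant were not called. The interaction was 0.012 (standard error 0.041, adjusted p = 0.93). The other shunt genes had interactions of -0.083 (hphd-1), -0.10 (alh-8), 0.12 (hach-1) and 0.039 (ech-6). Of the nuclear receptors that control the shunt, nhr-10 had 0.034 and nhr-68 had -0.38 (adjusted p = 0.044), which passed the test but not the fold threshold.

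In the canonical propionate route, interactions were -0.003 for pcca-1, -0.009 for pccb-1, 0.005 for the mutase gene mmcm-1, 0.23 for mce-1, 0.011 for mmaa-1 and -0.004 for mmab-1. For mmcm-1 the standard error was 0.032, and its 16 values lay between 6127 and 6542, the 4 groups overlapping. The methionine synthase gene metr-1 was at 16148, 16056, 20064 and 18810.0 in wild type on OP50, 14237, 14119, 17111 and 16101 on BW25113, 14343, 14544, 15952 and 17272 in the mutant on OP50 and 12761, 13293, 14404 and 14394 on BW25113. Its diets overlapped in each genotype, but in wild type each BW25113 sample lay below the OP50 sample of the same replicate number, in 4 of 4 pairs. The same held in rnp-6(G281D), though the labels do not say that a number marks a pair. With the replicate number as a block its diet effect in wild type was -0.21 (adjusted p = 0.000195), against an adjusted p of 0.16 without the block. In rnp-6(G281D) it was -0.18, with an adjusted p of 0.068 without the block and 0.0055 with it. Both effects were under the fold threshold. The interaction of metr-1 was 0.028 (standard error 0.11, adjusted p = 0.94), with an adjusted p of 0.79 under the block. The S-adenosylmethionine synthetase genes sams-1, sams-3, sams-4 and sams-5 had -0.008, 0.12, 0.014 and 0.044. The S-adenosylhomocysteine hydrolase gene ahcy-1 had 0.037 and the receptor gene nhr-114 -0.029, with a standard error of 0.27. The largest of the list was cbl-1, with 0.30 (standard error 0.14, adjusted p = 0.27). It was at 1588 to 1696 and 1953 to 2317 in wild type on OP50 and BW25113 and at 611 to 860.3 and 985 to 1272 in the mutant, rising on BW25113 in both genotypes without overlap. In the folate gene dao-3 the interaction of 0.21 (adjusted p = 0.048) passed the test but not the fold threshold. A miss of the threshold does not show that the genotypes responded alike. Where the standard error was largest in these lists, in cbs-2 (0.34, at 36.04 to 58.5 normalized counts in wild type on OP50), an interaction of 0.5 was not detectable.

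In 4 lists of lipid genes no more than 3 genes to a list were called, beside 2.42% of all genes, and no share was tested. In lists of 19 or 21 genes any 1 call exceeds 2.42%, so those shares are near the background. Of 19 genes of phosphatidylcholine and phosphatidylethanolamine synthesis, 1 was called (5.26%), the choline kinase gene ckb-2. It was at 1019.9, 1299, 1587 and 1158 in wild type on OP50, 908, 1109, 1499 and 1059 on BW25113, 1781, 1746, 2200.5 and 2328 in the mutant on OP50 and 853, 923, 1088 and 852 on BW25113. The mutant samples on OP50 were the highest without overlap. The interaction was -0.96 (standard error 0.21, adjusted p = 0.01), but in the FPKM table it was 0.086 and not called. The phosphoethanolamine methyltransferase genes pmt-1 and pmt-2 had -0.088 (adjusted p = 0.56) and -0.15 (adjusted p = 0.27). Of 21 desaturases and elongases 1 was called (4.76%), fat-5, a palmitoyl-CoA desaturase gene. Its values were 1342, 1405, 1131 and 1036 in wild type on OP50, 1068, 1231, 1090.3 and 1051 on BW25113, 4536, 4286, 4201 and 5889.8 in the mutant on OP50 and 2346, 2322, 2674 and 2513 on BW25113. The mutant lay above wild type on both diets and fell on BW25113, and the interaction was -0.79 (standard error 0.14, adjusted p = 0.003).

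Of 10 genes of peroxisomal beta-oxidation, 2 were called positive and 1 negative (30% in all). The neighbouring acyl-CoA oxidase genes acox-1.2 and acox-1.3, whose products shorten ascaroside side chains, had 1.02 (standard error 0.18, adjusted p = 0.0018) and 0.72 (standard error 0.076, adjusted p = 1.6e-05). The level of acox-1.2 was 1041, 1120.4, 781 and 1010.2 in wild type on OP50, 1344, 1129.6, 953 and 1134 on BW25113, 443, 363, 350.0 and 323 in the mutant on OP50 and 866, 1012, 877 and 727 on BW25113. Mutant samples on OP50 were the lowest without overlap, and those on BW25113 overlapped wild type on OP50. In the FPKM table the call of acox-1.3 was lost. The third, acox-1.5, fell on BW25113 in both genotypes and had -0.65 (standard error 0.14, adjusted p = 0.011). Of 15 lipid-binding proteins and vitellogenins, 2 were called positive and 1 negative (20% in all). Vitellogenins are yolk proteins made in the intestine. The level of vit-1 was 30475, 30365, 33410.3 and 32755 in wild type on OP50, 32651, 35615, 37224 and 40042 on BW25113, 14050.1, 12257, 13737 and 11783 in the mutant on OP50 and 27655, 25498, 29736 and 29138 on BW25113, with the mutant on OP50 lowest without overlap and an interaction of 0.92 (standard error 0.092, adjusted p = 8.7e-06). The level of vit-3 was 48044, 51164, 50045 and 50775 in wild type on OP50, 51326, 56667, 51637 and 60145 on BW25113, 73576, 69582, 68792 and 55187 in the mutant on OP50 and 124393, 129971, 127879 and 130681 on BW25113, with the mutant on BW25113 highest and an interaction of 0.82 (standard error 0.095, adjusted p = 3.8e-05). Near-identical vitellogenin copies can share reads, so these values are uncertain. For vit-4 and vit-5 the interactions were 0.39 and 0.46, past the test but under the fold threshold, and for vit-2 and vit-6 -0.073 and 0.016. The fatty acid-binding protein gene lbp-5 had -0.55 (standard error 0.11, adjusted p = 0.0059), a call lost without rnp-6(G281D) OP50 replicate 4.

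Called genes were more frequent among several lists of defence, detoxification and degradation genes than the 2.42% of all genes, a description with no test. Of all called genes 85.1% were negative. A list with few called genes, all of them negative, is near that background, here and in the lists below. Of 21 lysosomal proteases 7 were called (33.3%), 5 negative and 2 positive, and 4 negative without wild type BW25113 replicate 3. The cathepsin B-like gene cpr-3 was at 373, 399, 513 and 543 in wild type on OP50, 212, 207, 428 and 247 on BW25113, 1188, 1219, 1537 and 1621 in the mutant on OP50 and 232, 183, 217 and 234 on BW25113. Mutant samples on OP50 exceeded all others, the remaining groups overlapped in part, and the interaction was -1.88 (standard error 0.27, adjusted p = 0.00027). The aspartyl protease gene asp-8 had -1.01 (standard error 0.093, adjusted p = 3.6e-06). Of 105 C-type lectins, sugar-binding proteins that include many immune effectors, 11 were called negative and 2 positive (8 and 2 without wild type BW25113 replicate 3). Among them clec-4 went from 513 to 843 in the mutant on OP50 to 254 to 355 on BW25113, the latter overlapping wild type on OP50 at 208 to 262, with -1.11 (standard error 0.19, adjusted p = 0.0014). In the positive direction clec-210 had 1.74 (standard error 0.40, adjusted p = 0.016). Of 64 lysozymes, saposins and antimicrobial peptides, 5 were called, all negative. The saposin-like gene spp-18 was at 1102, 1168, 896 and 1067 in the mutant on OP50, 433, 395, 427 and 385 on BW25113, and 270.2 to 331 and 239 to 263 in wild type on OP50 and BW25113. All 4 mutant samples on OP50 lay above the other 12, and the interaction was -1.11 (standard error 0.12, adjusted p = 1.6e-05). The lysozyme gene lys-1, next to lys-2 on the chromosome, had -0.57 (standard error 0.06, adjusted p = 1.4e-05). Of 10 dod genes, known as downstream of DAF-16, 3 were called negative and 2 without wild type BW25113 replicate 3. Among them dod-21 passed the filter on low values only through the mutant on OP50. The call of dod-22 was lost in 12 of the fits that left out 1 sample. For dod-19 (chromosome V, 411782 to 414759) the levels were 3417, 4143, 4146 and 3436 in wild type on OP50, 3614, 3459, 4056 and 3329.8 on BW25113, 10035, 11227, 8894 and 10579 in the mutant on OP50 and 4844, 4329.5, 4589 and 4186 on BW25113. Both wild-type groups overlapped, the mutant on OP50 was highest, and the interaction was -1.11 (standard error 0.11, adjusted p = 9.8e-06).

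Among detoxification genes, 6 of 39 glutathione transferases were called (15.4%, beside 2.42% of all genes), all negative (4 without wild type BW25113 replicate 3). The level of gst-38 was 31.1, 36.4, 30.99 and 38.1 in wild type on OP50, 45.9, 29.8, 39.4 and 32.2 on BW25113, 167, 137, 147 and 159.9 in the mutant on OP50 and 55.2, 52.4, 28.3 and 38.7 on BW25113, with only the mutant on OP50 above 100 and an interaction of -1.92 (standard error 0.28, adjusted p = 0.0003). Of 60 UDP-glucuronosyltransferases, 6 were called negative and 3 positive (5 and 2 without that sample). The level of ugt-62 was 5162, 5344, 5347 and 4882 in wild type on OP50, 5312, 5022, 5517 and 5335 on BW25113, 9479, 9348, 9595 and 9723 in the mutant on OP50 and 4011, 3792, 3649 and 4259 on BW25113. It was highest in the mutant on OP50 and lowest in the mutant on BW25113, the wild-type groups overlapping between them, and its interaction of -1.31 (standard error 0.06, adjusted p = 1.3e-09) had a small error beside its size. Of 57 cytochrome P450 genes 4 were called negative and 2 positive (10.5% in all, and 3 and 2 without that sample). The largest of the called negative genes was cyp-33C8, with -1.36 (standard error 0.18, adjusted p = 0.00012), and the positive genes were cyp-25A1 with 1.15 and cyp-14A2 with 0.83. The cytosolic catalase gene ctl-1, for an enzyme that breaks down hydrogen peroxide, was at 1072 to 1346 and 933 to 1122 in wild type on OP50 and BW25113, 1746 to 1889.8 in the mutant on OP50 and 853 to 979 on BW25113. It was the only called gene of 10 superoxide dismutases, catalases and peroxiredoxins, with -0.75 (standard error 0.095, adjusted p = 8.4e-05).

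**Figure D4:**
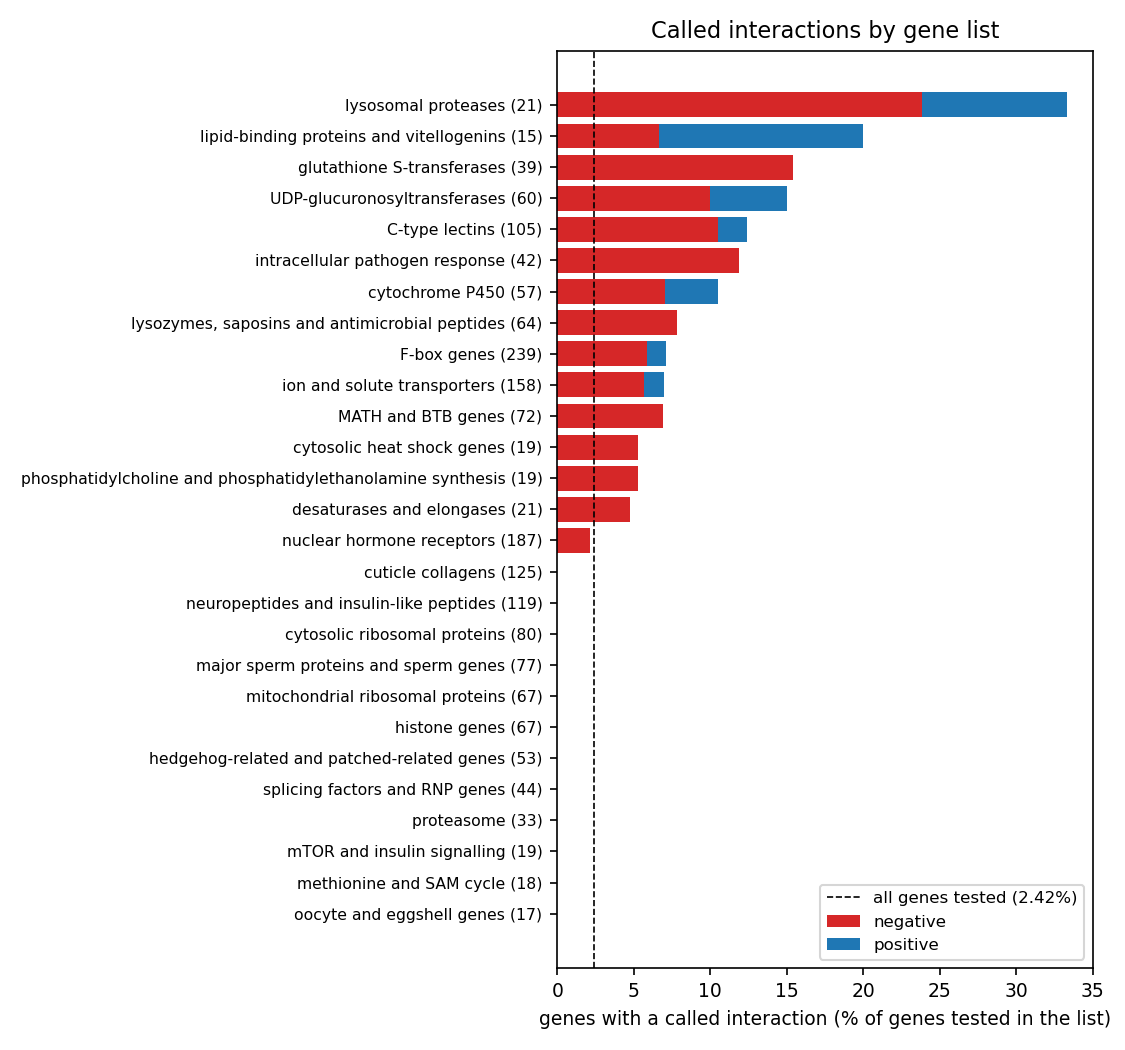
Share of genes tested (x axis, percent) with a called negative (red) or positive (blue) interaction in each list with at least 15 genes tested, the number tested in brackets; the dashed line is the 2.42% of all genes. Lysosomal proteases reach 33.3%, nuclear hormone receptors lie below the line, and 12 lists have no called gene.

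Of 239 F-box genes, whose products select targets for ubiquitination, 14 were called negative and 3 positive (7.11%), the largest being fbxa-30 with -2.27 (standard error 0.45, adjusted p = 0.0052) and fbxc-58 with -2.02 (standard error 0.32, adjusted p = 0.0009). Of 72 MATH and BTB genes 5 were called (6.94%, beside 2.42% of all genes), all negative, and 3 without wild type BW25113 replicate 3. The neighbours bath-46, bath-26 and bath-47 had -3.25, -1.57 and -2.07, and the call of bath-47 was lost in 5 of the fits that left out 1 sample, among them that without wild type BW25113 replicate 3. Copies in these families can share reads, which makes the values of single members uncertain. Both fbxa-30 and bath-46 passed the filter on low values only through the mutant on OP50. Of 42 genes of the intracellular pathogen response 5 were called (11.9%), all negative. The Skp1-related gene skr-3 was at 1592, 1699, 1769 and 1679.8 in the mutant on OP50 and 946, 965, 1073 and 957 on BW25113, against 746 to 868 and 745 to 808 in wild type on OP50 and BW25113. The mutant on OP50 stood highest, and the interaction was -0.75 (standard error 0.076, adjusted p = 9.4e-06). Of 158 ion and solute transporters 9 were called negative and 2 positive (6.96% in all). The sugar transporter gene swt-6 had -2.46 (standard error 0.33, adjusted p = 0.00015) and the bestrophin channel gene best-5 -2.203 (standard error 0.22, adjusted p = 9e-06). Of 187 nuclear hormone receptors 4 were called, all negative (2.14%, near the share of all genes), among them nhr-8, a receptor for xenobiotic and cholesterol responses, with -0.68 (standard error 0.12, adjusted p = 0.0015).

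Among stress responses, 1 of 19 cytosolic heat shock genes was called (5.26%, beside 2.42% of all genes), the small heat shock gene hsp-17. It was at 555 to 833 and 476 to 805 in wild type on OP50 and BW25113, 1308 to 1759 in the mutant on OP50 and 642 to 813 on BW25113, with -0.99 (standard error 0.20, adjusted p = 0.0075). Of 13 genes of the endoplasmic reticulum unfolded protein response only ckb-2 was called (7.69%), with a median of -0.28 over the list. In the FPKM table the call of ckb-2 was lost and its sign turned. The chaperone gene hsp-4 was at 16747 to 19536 and 17195 to 20804 in wild type and at 23691 to 25390.0 and 18674 to 21288 in the mutant, and its interaction of -0.37 (adjusted p = 0.011) was under the fold threshold. None of 10 genes of the mitochondrial unfolded protein response was called. Its chaperone gene hsp-6 had -0.22 (adjusted p = 0.017), also under the fold threshold. Counts of 0 or 1 in lists this short are near the background and say little about their members.

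No gene was called among 125 cuticle collagens, 119 neuropeptides and insulin-like peptides, 80 cytosolic and 67 mitochondrial ribosomal proteins, 77 sperm genes, 67 histone genes, 53 hedgehog-related and patched-related genes, 44 splicing factors and RNP genes, 33 proteasome subunits, 19 genes of mTOR and insulin signalling, 17 oocyte and eggshell genes and 9 of nonsense-mediated decay. Beside the 2.42% of all genes, a count of 0 is near the background in the shorter of these lists and was not tested in any of them. Counts at other settings for these lists were limited to the fit without wild type BW25113 replicate 3, in which 1 collagen gene was called. Sperm genes had the lowest median of these, at -0.31, with a median diet effect of -1.04 in rnp-6(G281D) and -0.70 in wild type. The neuropeptide list had a median of -0.17, and the splicing list of 0.050. Beside these stands a median of 0.002 over all genes.

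The called genes were spread over the genome, with neighbours represented. Chromosome V held 125 called of 3060 tested (4.08%), chromosome IV 74 of 2707 (2.73%), chromosome II 66 of 2817 (2.34%), chromosome X 49 of 2188 (2.24%), chromosome III 43 of 2457 (1.75%) and chromosome I 25 of 2556 (0.978%). Of the 382 called genes, 72 (18.8%) had a called gene as the next tested gene on the chromosome, against 738 of all 15799 genes (4.67%). They formed 32 runs, of which 30 had 1 sign throughout, where 85.1% of all called genes were negative. The longest joined C25F9.11, C25F9.14, M04C3.1 and M04C3.2 on chromosome V from 19432447 to 19448905. Others were C02E7.10 with catp-2, acox-1.2 with acox-1.3, the tetraspanin genes tsp-2 and tsp-1, and W07B8.4 with the protease genes cpr-5 and cpr-8. Neighbours are often copies of each other, and shared reads were not tested. Of the called genes 374 were annotated as protein coding and 6 as pseudogenes, and 168 (44%) carried only a sequence name or an identifier, against 47.7% of all genes tested.

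How small an interaction could be called depended on the level. Among 5547 genes with a mean of 10 to 100 normalized counts the median standard error was 0.35 and no called interaction was smaller than 0.67. Among 4735 genes at 100 to 1000 it was 0.14, and among 5517 genes at 1000 or more 0.052. The share called was 1.62%, 4.65% and 1.31%, so in the lowest class an interaction of 0.5 was not detectable.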

How the data were processed

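Whole-worm RNA from 16 samples, 4 for each pairing of genotype and diet, was sequenced by the authors as stranded, ribosomal RNA-depleted libraries. Per the labels and methods the authors used kallisto 0.46.1, DESeq2 1.24 and the build WBcel235; Cufflinks 2.2.1 is also named. The authors deposited a signal per gene, the estimated count divided by a median-of-ratios size factor (here the normalized count), and a table of FPKM, used as an alternative. The signal is not a raw count, so no count test was run.

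Genes averaging 10 or more across all samples were fitted on log2(normalized count + 1) with limma 3.58.1 in R 4.3.3 (lmFit, eBayes with trend), the interaction on all 16 samples and single diet or genotype effects on their 8. Tests were two-sided, with Benjamini-Hochberg adjustment over 15799 genes and thresholds of 0.05 and 0.5. The fit was tested on simulated data. Coordinates and gene types came from the Ensembl annotation of WBcel235. Named genes were the 12 largest called interactions per direction with a group mean of at least 100, up to 4 called genes per list, Y41C4A.32, rnp-6 and all genes of the vitamin B12 lists. C07G1.7, atf-4, hsp-4, hsp-6, pals-22, pals-25, pmt-1, pmt-2, vit-2, vit-4, vit-5, vit-6, and genes named for their place on a chromosome, fall outside this rule and were chosen with values known. Members and lists were chosen with earlier results of these data known. Alternatives were pseudocounts of 0.1 and 5, other filters, scalings and thresholds, the FPKM table, a replicate block and leaving out each sample. Figures were drawn with matplotlib 3.10.9.

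The labels do not say what a replicate number marks. Over 10252 genes, deviations of same-numbered samples from their group means correlated at 0.20 to 0.30 between genotypes on OP50, 0.10 to 0.47 on BW25113 and 0.21 to 0.56 between diets in wild type. There every pair was over 0.1, so the numbers may pair those samples, a reading drawn from the data. Between diets in rnp-6(G281D) the range was -0.064 to 0.27. Numbers that pair the other comparisons would also link the mutant samples on OP50 and BW25113 through wild type. Samples with different numbers were not compared, so whether the numbers mark shared batches was not settled. The fits above have no block unless it is named, so their counts and p-values leave any such pairing out. Counts under the block are given below. Block values for single named genes, called or not, were added after the data were seen.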

Additional observations from a re-analysis of the deposited data

Results flagged for a closer look

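In 3 genes the diet effect was called in both genotypes with opposite signs, and the difference itself was tested as the interaction in limma with Benjamini-Hochberg adjustment. It was -5.21 (standard error 0.96, adjusted p = 0.003) in nhx-6, -1.48 (standard error 0.14, adjusted p = 5.1e-06) in lys-2 and -4.46 (standard error 0.51, adjusted p = 3.4e-05) in C07G1.7.

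Single samples far from the other 3 of their group were sought in the 120 genes looked up, on the log2 scale. Of 480 groups of 4, 32 held such a sample, where chance gives about 1 in 20. Wild type on BW25113 replicate 3 accounted for 7 and rnp-6(G281D) on OP50 replicate 4 for another 7. In rnp-6(G281D) on OP50 replicate 4 the normalized counts, against the range of the other 3 samples, were nhx-6 659 against 989 to 1074, C02E7.10 132 against 258 to 280.1, Y41C4A.32 5005 against 2611 to 2764, warf-1 1485 against 1038 to 1097, nhr-115 106 against 120.2 to 122, asp-14 505 against 708 to 728 and spin-3 24.8 against 50.5 to 57.8. For wild type on BW25113 replicate 3 they were nhx-6 208 against 17.2 to 25, Y41C4A.32 180.3 against 56.7 to 62.5, C49G7.7 94 against 14.3 to 16.1, lys-2 4712 against 3702 to 3779.7, gsto-1 1210.2 against 656 to 719.5, cpr-4 18995 against 15115 to 15514 and asp-14 642 against 986 to 1073. For rnp-6(G281D) on BW25113 replicate 3 they were C49G7.7 28.4 against 10.5 to 11.6, gsto-1 425 against 646 to 703, skr-3 1073 against 946 to 965 and mel-32 25260.3 against 27702 to 28057. For wild type on OP50 replicate 2 they were nhr-8 834 against 659 to 669, spin-3 87.8 against 121 to 129 and WBGene00019208 67.7 against 96.1 to 99.1. For wild type on OP50 replicate 3 they were C02E7.10 2.08 against 0, C25F9.11 5.18 against 0.832 to 1.01 and acox-1.3 1037 against 1150.5 to 1165. For rnp-6(G281D) on BW25113 replicate 4 they were dod-21 0 against 4.12 to 5.67 and dao-3 1142 against 1179 to 1186. For rnp-6(G281D) on BW25113 replicate 1 it was WBGene00019208 36.8 against 71.1 to 71.9. For rnp-6(G281D) on BW25113 replicate 2 it was ugt-19 359 against 470.1 to 477. For rnp-6(G281D) on OP50 replicate 1 it was fbxa-66 30.7 against 46.7 to 50.2. For wild type on BW25113 replicate 2 it was gst-29 20.2 against 15.8 to 16.4. For wild type on OP50 replicate 1 it was vit-5 128953 against 134232 to 134892. For wild type on OP50 replicate 4 it was ech-6 21014 against 21479.9 to 21524.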

How the results depend on the processing

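The number of genes with a called interaction lay between 305 (mean of at least 100) and 401 (FPKM table) under other pseudocounts, filters, scalings and variance models. Thresholds moved it further. With no fold threshold 737 genes passed, 211 positive and 526 negative, and at an absolute log2 difference of 1, 165 did, 21 positive and 144 negative. Quantile normalization gave 90 positive genes in place of 57. Leaving out each sample gave 317 to 402 genes. The diet effect in wild type, 526 genes, ran from 275 to 544 when each of its samples was left out, with 280 without wild type OP50 replicate 1, 275 without wild type OP50 replicate 4 and 305 without wild type BW25113 replicate 2. The diet effect in rnp-6(G281D) and both genotype effects stayed within 1.5 times their counts in each fit run. Of 77 called genes followed, 61 were called in all 28 alternatives that gave them a value and kept the fold threshold at or under 0.5, and 11 lost the call in at least 1 fit without a sample. Those were WBGene00019208, bath-47, clec-125, cyp-13A12, dod-22, fbxa-66, gst-29, irg-2, lbp-5, math-24 and spin-3. The sign turned in 1 case, ckb-2, at 0.086 in the FPKM table, and the cause was not tested.

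With the replicate block 473 genes were called, 82 positive and 391 negative, 377 of them shared with the 382. The block changed no call of the 77 genes followed. It gave 710 genes for the diet effect in wild type, 1376 for that in rnp-6(G281D), and 1875 and 1108 for the genotype effect on OP50 and BW25113. It added 5 calls of single effects among the genes named, the diet effect in wild type of clec-125 and clec-210 and the genotype effect on BW25113 of C25F9.11, T19C9.8 and nhr-114.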

Other observations

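Some small families outside the lists were noticed after their values were seen, and carry no test as families. Of 12 galectin genes (symbol lec, for sugar-binding proteins) 4 were called, all negative, beside 2.42% of all genes. Other families looked at in the same way were the carboxylesterases (symbol cest), with 4 negative and 1 positive of 31, and the tetraspanins (tsp), with 2 negative of 17. Their interactions were -0.98 (standard error 0.072) in lec-6, -1.03 (0.075) in lec-8, -0.80 (0.078) in lec-10 and -0.97 (0.18) in lec-11. The mean of lec-6 was 8313 normalized counts in the mutant on OP50 and 4660.0 on BW25113, against 4698 and 5213 in wild type on OP50 and BW25113. The pair of kinase genes kgb-1 and kgb-2, of the JNK family and again picked for their values, were called negative, with -0.68 (standard error 0.050) and -1.39 (0.30). The mean of kgb-1 was 1628 in the mutant on OP50, 997 in the mutant on BW25113, and 1037 and 1021 in wild type on OP50 and BW25113.

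For 2 genes of the methionine cycle list, replicate 3 was low in every group. The receptor gene nhr-114 was at 3865, 3651, 2572 and 2781 in wild type on OP50, 3271, 3084, 1901 and 2534 on BW25113, 2677, 2467, 1597 and 2238 in the mutant on OP50 and 2168, 2064, 1364 and 1721 on BW25113. For sams-1 the values were 9352, 9820.3, 7773 and 8080.1 in wild type on OP50, 9146, 9866, 7075 and 8561 on BW25113, 10149, 9118, 7176 and 8942 in the mutant on OP50 and 10128, 9248, 7175 and 8178 on BW25113. Replicate 3 was the lowest of its 4 in each of the 4 groups for both genes. Under the block the genotype effect of nhr-114 on BW25113, -0.55, had an adjusted p of 6.4e-06, against 0.054 without it.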
